A study of Mus musculus with 18 samples.

Results

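Mouse embryonic fibroblasts with and without the tumour suppressor gene Trp53 were compared here in cells that carried both wild-type copies of Pole4, a gene for a subunit of DNA polymerase epsilon. The comparison rested on 6 of the 18 libraries of the series, taken by their genotype labels: 3 of Pole4+/+ Trp53-/- and 3 of Pole4+/+ Trp53+/+ cells. The cells were primary fibroblasts at passage 1 from mid-gestation embryos, without head, heart and liver, of Pole4+/- Trp53+/- intercrosses in the C57BL/6 background, with the Trp53 tm1Brd allele as the deletion, and all were grown in 5% oxygen and 15% fetal bovine serum. The series held 6 genotypes with 3 libraries each, and RNA was measured by sequencing. Deletion of Trp53 in the germ line removes the gene from every cell of the embryo from the start, so the comparison is of cells that developed without it, not of cells that lost it in culture. Each library is a separate sample in the labels, which do not say whether libraries of a genotype came from separate embryos. The p-values therefore measure spread between libraries, estimated within genotypes over all 18 libraries of the series and not over these 6 alone.

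TRP53 is a transcription factor that binds DNA as a tetramer at a paired decamer, the p53 response element, and raises the transcription of genes that halt the cell cycle, start apoptosis, repair DNA and limit TRP53 itself. One of them, Cdkn1a, encodes the inhibitor p21, which keeps the RB proteins in their active state. Genes of replication and mitosis are held down in that state through E2F sites and through CDE and CHR elements bound by the DREAM complex.

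The libraries held 28422803, 25856820 and 10608167 counts in Trp53-/- (replicates 1 to 3, the order used for every value that follows) and 32155281, 18384541 and 14831534 in Trp53+/+. Replicate 1 of Trp53-/- stood apart from the other 2 of its group. Over log2 CPM (counts scaled by TMM to a common library size) its Pearson correlation across genes was 0.955 with replicate 2 and 0.944 with replicate 3, against 0.977 between replicates 2 and 3 and 0.978 to 0.990 among the Trp53+/+ libraries; genes are not independent replicates and these values carry no test. The counts of calls are therefore given with and without it. All 6 libraries had high Xist, the RNA of the inactive X chromosome, and were read as female. Reads of 4 Y-linked genes (Ddx3y, Eif2s3y, Kdm5d and Uty) summed to 7.20 CPM in Trp53-/- replicate 1, against 0 to 0.302 CPM in the other 5 libraries and 166 to 202 CPM in the 7 male libraries of the series. Fibroblast markers summed to 9843 to 13670.0 CPM in Trp53-/- and 9014 to 12455 CPM in Trp53+/+, and none of the 12 was at 0. Red cell markers were near 0, at 0.0776 to 2.34 CPM in Trp53-/- and 0.0907 to 0.178 CPM in Trp53+/+. Markers of macrophages differed between libraries of the same genotype, at 9.79, 34.7 and 40.7 CPM in Trp53-/- and 8.10, 78.2 and 67.1 CPM in Trp53+/+, and were low in replicate 1 of both groups. The share of ribosomal RNA counts was 1.82 to 13.1% in Trp53-/- and 5.81 to 11.2% in Trp53+/+. In bulk RNA, fewer cells of a type and less RNA per cell cannot be told apart.

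Of 15710 genes tested, 372 were called lower and 351 higher in Trp53-/- (edgeR's quasi-likelihood test in a fit to all 18 libraries, Benjamini-Hochberg adjusted p under 0.05), which is 4.60% in all, 2.37% lower and 2.23% higher. The medians of the called genes were -0.84 and 0.69 on the log2 scale, and the median of all genes was 0.03. A log2 fold change of at least 2 in size was seen for 43 genes called lower and 28 called higher. Without Trp53-/- replicate 1, 1340 genes (8.53%) were called lower and 1378 (8.77%) higher, or 17.3% in all. Of the 723 genes called with all 6 libraries, 681 were also called in the same direction without replicate 1, which is 94.2% of the smaller set and 25.1% of the larger. Of the 42 that were called only with it, 38 were higher, and in 37 of these replicate 1 was the highest Trp53-/- library, a position that this choice of genes favours. Without Trp53-/- replicate 2 there were 477 calls and without Trp53+/+ replicate 1, 2 or 3 there were 386, 425 and 300. A fit of only the 6 libraries called 94 genes, and scaling by library totals alone called 192. In 167 genes called lower and 79 called higher the call held in each of the 6 fits that left out 1 library.

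**Figure D1:**
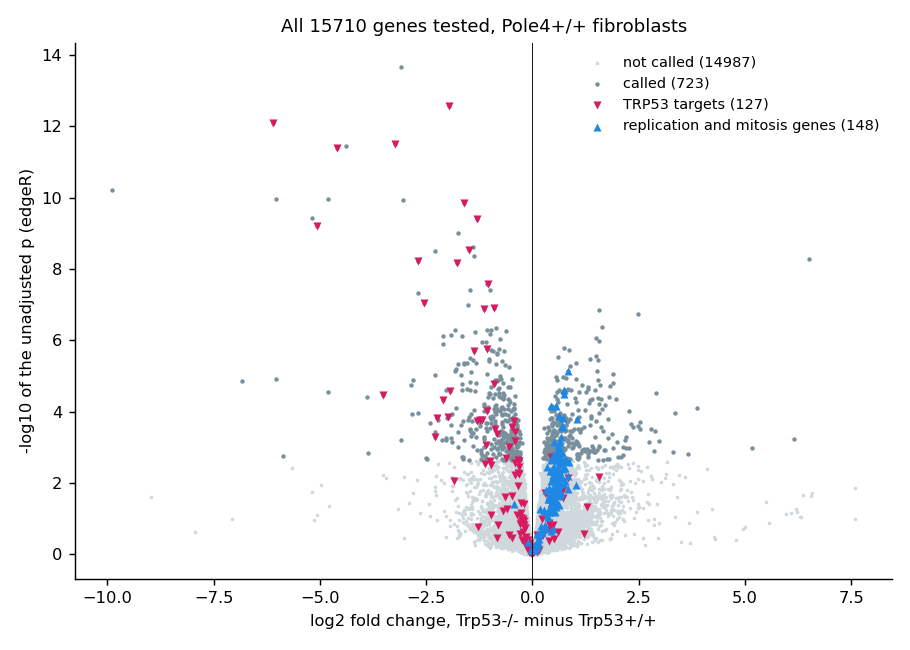
Each point is 1 of the 15710 genes tested, with the log2 fold change (Trp53-/- minus Trp53+/+) on the x axis and -log10 of the unadjusted p on the y axis. TRP53 targets (red, 127 tested) reach down to a log2 fold change of -6.10, while replication and mitosis genes (blue, 148 tested) lie between -0.43 and 1.06.

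Trp53 itself (chr11:69580359-69591873, GRCm38) checked the labels. It was at 11.5, 8.65 and 12.04 CPM in Trp53-/- and 89.7, 96.1 and 86.6 CPM in Trp53+/+, with no overlap, and differed by -3.08 ± 0.12 (SE) on the log2 scale (adjusted p = 3.46e-10). Counts are per gene, so reads from any part of the locus that the allele leaves in place are included. Pole4 (chr6:82618992-82705365), wild-type in both groups, was at 14.2, 25.4 and 26.4 CPM in Trp53-/- and 22.9, 20.8 and 16.3 CPM in Trp53+/+ (adjusted p = 0.788), and the groups overlapped. For a single gene, an exact permutation test of 3 against 3 libraries cannot go below p = 0.1, the value for every named gene whose groups did not overlap.

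The genes with the lowest p were all lower in Trp53-/-. Zmat3 (chr3:32334792-32366014), a zinc finger RNA-binding protein that acts in TRP53 tumour suppression, was at 45.1, 43.5 and 45.6 CPM in Trp53-/- and 175, 163 and 185 CPM in Trp53+/+ (log2 fold change -1.96 ± 0.09 (SE), adjusted p = 2.15e-09). Its values were close together within each group. Eda2r (chrX:97333840-97377216), a death-inducing receptor of the TNF receptor family, was at 1.12, 0.272 and 0.647 CPM in Trp53-/- against 45.9, 42.2 and 61.2 CPM (-6.10 ± 0.29 (SE), adjusted p = 4.16e-09). Dglucy (chr12:100779057-100896981), a mitochondrial D-glutamate cyclase, was at 1.62, 0.776 and 0.566 CPM against 19.6, 22.9 and 25.5 CPM (-4.38 ± 0.23 (SE), adjusted p = 1.06e-08). In each of these genes every Trp53-/- library, replicate 1 included, lay far below the lowest Trp53+/+ library. The kit does not keep strand, so reads from a stretch that 2 genes share cannot be told apart. Ccng1 (chr11:40748552-40755311), cyclin G1, which recruits a phosphatase to MDM2, was at 77.4, 88.4 and 51.98 CPM against 582, 693 and 771 CPM (-3.23 ± 0.17 (SE), adjusted p = 1.06e-08). Without replicate 1 the log2 fold changes of Eda2r, Dglucy and Ccng1 were -6.96 ± 0.28 (SE), -5.03 ± 0.19 (SE) and -3.31 ± 0.20 (SE), and each was still called, as was Zmat3 (adjusted p = 6.91e-09).

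**Figure D2:**
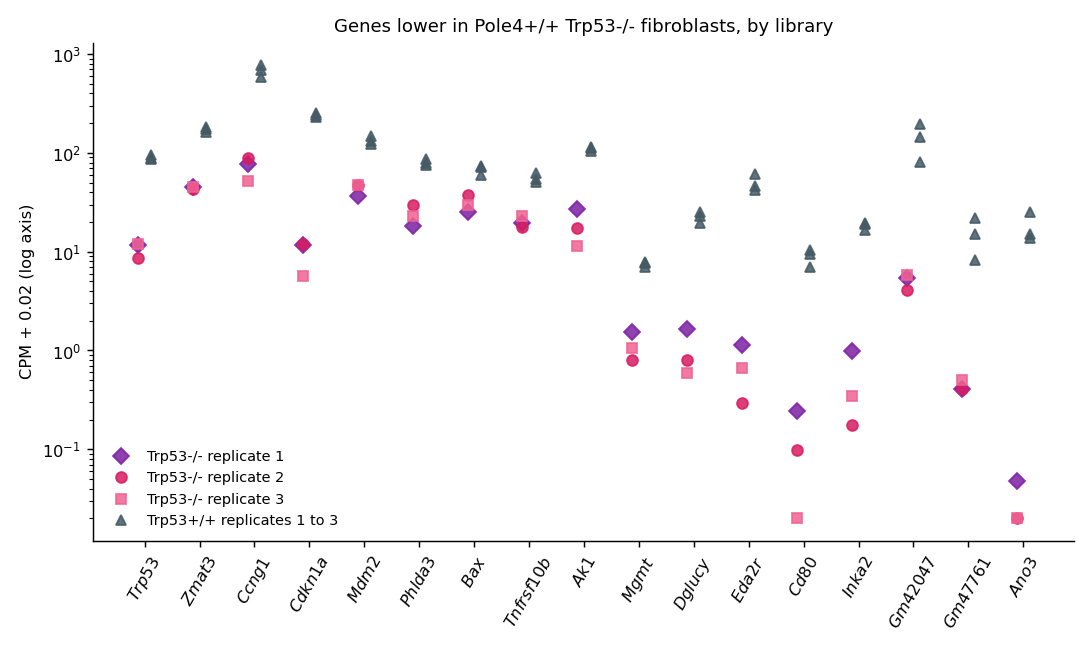
CPM + 0.02 on a log axis for 17 named genes lower in Trp53-/-, with Trp53-/- replicate 1 as a diamond, the other 2 Trp53-/- libraries as a circle and a square, and the 3 Trp53+/+ libraries as triangles. In every gene all 3 Trp53-/- points lie below all 3 Trp53+/+ points, replicate 1 included.

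Of 127 tested members of 6 lists of TRP53 targets, 37 were called lower (background 2.37%) and 1 higher (background 2.23%), and the median log2 fold change was -0.27 against 0.03 over all genes. Without Trp53-/- replicate 1 the calls were 49 lower (background 8.53%) and 6 higher (4.72%, background 8.77%), with a median of -0.37. A fit of only the 6 libraries called 15 targets lower, and scaling by library totals alone 23. Of the 38 calls 25 held in each fit that left out 1 library. Groups did not overlap in 49 members lower in Trp53-/- (background 8.31%) and 6 higher (background 8.24%). The same backgrounds hold for each of the 6 lists, which are ordered here by the role of their members.

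In the list of growth arrest genes 9 of 22 were called lower and none higher, with a median of -0.64, and without replicate 1 the counts were 12 lower and 2 higher. Cdkn1a (chr17:29090976-29100727) was at 11.8, 12.03 and 5.66 CPM in Trp53-/- and 243, 232 and 251 CPM in Trp53+/+ (-4.59 ± 0.24 (SE), adjusted p = 1.06e-08). The Trp53+/+ values were close together, and every Trp53-/- library lay far below them. Phlda3 (chr1:135766119-135769136), which blocks AKT at the membrane, was at 18.2, 29.6 and 22.7 CPM against 74.97, 87.2 and 78.3 CPM (-1.77 ± 0.16 (SE), adjusted p = 4.89e-06). The groups did not overlap. Among feedback genes 2 of 10 were called lower, Mdm2 and Rps27l, and the median of that list was -0.02. Without replicate 1, 3 were called lower and 1 higher. Mdm2 (chr10:117688875-117710758), the ubiquitin ligase that degrades TRP53, was at 36.3, 47.8 and 47.5 CPM against 123, 132 and 147 CPM (-1.62 ± 0.11 (SE), adjusted p = 2.04e-07). Rps27l (chr9:66946086-66949516), a paralog of the ribosomal protein gene Rps27, was at 44.9, 77.1 and 53.3 CPM in Trp53-/- and 103, 118 and 109 CPM in Trp53+/+ (-0.91 ± 0.15 (SE), adjusted p = 0.00241). Near-identical copies of ribosomal protein genes can share reads, so its level is uncertain. Without replicate 1 the log2 fold changes of Cdkn1a, Phlda3, Mdm2 and Rps27l were -4.75 ± 0.28 (SE), -1.64 ± 0.15 (SE), -1.52 ± 0.10 (SE) and -0.78 ± 0.13 (SE), and each was still called.

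Of apoptosis genes 10 of 19 were called lower and none higher, with a median of -0.91. Without replicate 1, 12 were called lower and none higher. Bax (chr7:45461697-45466898), which opens the outer mitochondrial membrane, was at 25.5, 37.4 and 29.9 CPM in Trp53-/- and 59.8, 73.3 and 71.3 CPM in Trp53+/+ (-1.14 ± 0.13 (SE), adjusted p = 6.84e-05). Tnfrsf10b (chr14:69767472-69784411), the receptor for the death ligand TRAIL, was at 19.6, 17.7 and 22.96 CPM against 54.2, 51.3 and 63.1 CPM (-1.49 ± 0.13 (SE), adjusted p = 2.72e-06). Neither gene had overlapping groups, and both kept clear expression without TRP53. Ei24, an autophagy and death gene of the endoplasmic reticulum, differed by -0.91 ± 0.10 (SE) (adjusted p = 6.31e-05).

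For DNA repair, 4 of 12 were called lower and 1 higher, and 4 lower and 2 higher without replicate 1. Polk (chr13:96480690-96542579), the translesion polymerase kappa, was at 17.9, 18.2 and 16.7 CPM against 41.8, 41.3 and 46.8 CPM (-1.30 ± 0.09 (SE), adjusted p = 4.7e-07). Mgmt (chr7:136894614-137130266), which removes methyl groups from guanine, was at 1.53, 0.776 and 1.05 CPM against 6.98, 7.60 and 7.77 CPM (-2.70 ± 0.24 (SE), adjusted p = 4.62e-06). It showed the largest fold of the 4, and no library came near the other group. Ercc5, a nuclease of nucleotide excision repair, differed by -1.07 ± 0.14 (SE) (adjusted p = 0.000514) and Rrm2b, the TRP53-induced subunit of ribonucleotide reductase, by -0.54 ± 0.13 (SE) (adjusted p = 0.0311). The median of the list was 0.06, and -0.24 without replicate 1.

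Of metabolism and autophagy genes 3 of 22 were called lower, with a median of -0.15, and 6 lower and 1 higher without replicate 1. Abhd4, a lipase, was at 29.99, 21.1 and 13.99 CPM in Trp53-/- and 36.8, 37.9 and 45.6 CPM in Trp53+/+ (-0.87 ± 0.19 (SE), adjusted p = 0.0147), Fuca1, the lysosomal fucosidase, differed by -0.40 ± 0.10 (SE) (adjusted p = 0.0240) and Aldh4a1, of proline breakdown, by -0.62 ± 0.17 (SE) (adjusted p = 0.0453). In each, Trp53-/- replicate 1 was the highest of its group and near the lowest Trp53+/+ library, and without it the differences were larger (-1.21 ± 0.16 (SE), -0.53 ± 0.10 (SE) and -0.94 ± 0.14 (SE)). In the list of secreted and other targets 9 of 42 were called lower and none higher, with a median of -0.24, and without replicate 1 the counts were 12 and none. Ak1 (chr2:32621758-32635058), adenylate kinase, was at 27.1, 17.2 and 11.5 CPM against 105, 112 and 115 CPM (-2.55 ± 0.27 (SE), adjusted p = 5.08e-05). Susd6, a membrane protein, differed by -1.05 ± 0.10 (SE) (adjusted p = 1.76e-05) and Dcxr, a sugar reductase, by -2.10 ± 0.38 (SE) (adjusted p = 0.00441). Inka2 (chr3:105704599-105720842), an inhibitor of the kinase PAK4, was at 0.976, 0.155 and 0.323 CPM against 19.5, 16.6 and 19.1 CPM (-5.06 ± 0.38 (SE), adjusted p = 7.19e-07).

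The p53 response element was searched in the 250 bases before the annotated start sites of RefSeq promoters (GRCm38.p6), since it is the sequence TRP53 binds. A window was found for 10689 of the 15710 genes tested. The consensus has 20 bases and reads the same on both strands. With at most 2 mismatches it was found for 8 of 277 genes called lower (2.89%), 1 of 269 called higher (0.372%) and 83 of all 10689 (0.777%). With at most 1 mismatch it was found for 3 genes called lower (1.08%), no gene called higher and 6 of all (0.0561%), and with at most 3 for 8.66%, 2.97% and 5.60%. Among genes called without replicate 1 the shares were smaller for those called lower, at 1.71% of 1053 with at most 2 mismatches, 0.380% with at most 1 and 7.12% with at most 3, and for the 1030 called higher they were 0.485%, 0.0971% and 5.24%. The 3 genes called lower with at most 1 mismatch were Cdkn1a, Ccng1 and Rps27l. The matches of the named genes are shown on the strand of the gene, with capitals for bases that fit the consensus, lower case within the run for those that do not, and 5 bases of flank on each side in lower case.
Cdkn1a: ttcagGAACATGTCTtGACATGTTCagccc
Ccng1: aggccAGACcTGCCCGGGCAAGCCTtggca
Rps27l: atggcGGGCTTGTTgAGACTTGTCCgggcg
Cd80: gctcaGAACAgGCCTGGACAAGTCacctcc
Dck: ccaaaGGGCTgGTCCAGAaAAGCCTgaccc
The Cdkn1a match (chr17:29090928-29090947, plus strand) lay 31 bases before an annotated start site and that of Ccng1 (chr11:40755462-40755481, minus strand) 175 bases before one, both in no annotated transcript. Those of Rps27l (chr9:66946296-66946315, plus strand) and Cd80 (chr16:38458822-38458841, plus strand) lay 97 and 91 bases before one of several start sites, within an intron of the gene's longer transcripts. That of Dck (chr5:88764799-88764818, plus strand), a gene called higher, lay 194 bases before its start. A match is a description of these letters and no match says only that they are not in the window.

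Of the 10 called genes with the lowest fold changes whose groups did not overlap, all but Eda2r and Inka2 were outside the TRP53 lists. Ano3 (chr2:110655201-110950923), of the anoctamin family of membrane proteins, was at 0.0279, 0 and 0 CPM in Trp53-/- and 15.1, 13.8 and 25.5 CPM in Trp53+/+. It overlaps Muc15 in part. Over the 3 Trp53-/- libraries it had 1 count in all, and the ratio of the pooled levels was 1275-fold with a 95% counting interval of 228 to 50414 (adjusted p = 1.36e-07). Cd80 (chr16:38455561-38496335), the co-stimulatory ligand of T cells, was at 0.223, 0.0776 and 0 CPM against 10.4, 7.03 and 9.37 CPM (-6.04 ± 0.41 (SE), adjusted p = 1.87e-07). Of 15 macrophage markers tested none was called. All macrophage markers summed to 9.79, 34.7 and 40.7 CPM in Trp53-/- and 8.10, 78.2 and 67.1 CPM in Trp53+/+. The part of macrophages in the Cd80 difference was not tested. Klhdc7a, a kelch-domain protein, had 1 count over the Trp53-/- group, for a ratio of 89.7 (95% counting interval 15.7 to 3585), and 1700007K13Rik had 2, for a ratio of 30.4 (8.05 to 257). Gm13067, a long non-coding RNA, and Gm4353 were at 0 in all 3 Trp53-/- libraries, at least 15.3-fold and 8.54-fold lower than in Trp53+/+ by a floor of 3 counts over the group. No library held more than 19 counts of either, and Gm4353 was called in only 1 of the 6 fits that left out a library. Gm4353 also overlaps 1110004F10Rik on the opposite strand, and reads from the overlap cannot be told apart.

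A pair of long non-coding RNAs with higher counts was also among the 10. Gm47761 (chr10:17318085-17323228) was at 0.391, 0.388 and 0.485 CPM in Trp53-/- and 8.28, 15.3 and 22.1 CPM in Trp53+/+ (-5.19 ± 0.38 (SE), adjusted p = 4.7e-07), and Gm42047 (chr8:121833247-121841178) at 5.36, 4.07 and 5.74 CPM against 81.5, 146 and 194 CPM (-4.81 ± 0.31 (SE), adjusted p = 1.87e-07). The Trp53-/- values of each were close together, and the Trp53+/+ values were spread more widely. Gm42047 overlaps the longer model Gm20388, which was not called, and reads from the overlap cannot be told apart.

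Among the 10 called genes with the highest fold changes whose groups did not overlap, Trp53-/- replicate 1 was the highest library in 8. In 7 of these (Egfl6, Sfrp2, Grm7, Gfra2, Il31ra, Chrdl1 and Tril) it stood well above the other 2 Trp53-/- libraries, and in Sv2c they were close behind. Over all 351 genes called higher, replicate 1 was the highest Trp53-/- library in 126 and the lowest in 185. Sfrp2 (chr3:83766321-83774316), a secreted WNT antagonist, was at 94.5, 14.1 and 10.9 CPM in Trp53-/- and 2.84, 3.05 and 2.31 CPM in Trp53+/+ (3.87 ± 0.70 (SE), adjusted p = 0.00646). Without replicate 1 it stayed higher, by 2.16 ± 0.33 (SE) (adjusted p = 0.000937). Gfra2, a receptor for neurturin, was at 16.4, 3.92 and 2.02 CPM against 0.756, 0.776 and 0.653 CPM and stayed called without it (2.01 ± 0.46 (SE), adjusted p = 0.00856). Egfl6, a secreted EGF-like protein, was at 10.9, 0.504 and 0.404 CPM against 0.212, 0.0517 and 0 CPM (5.17 ± 1.28 (SE), adjusted p = 0.0320) and lost its call without replicate 1 (2.02 ± 0.95 (SE), adjusted p = 0.160), as did Grm7, Il31ra and Chrdl1, a BMP antagonist (adjusted p = 0.125, adjusted p = 0.0882 and adjusted p = 0.0830).

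Sv2c, Gm6685 and Necab2, like the rest of this set, were higher in every Trp53-/- library. In them replicate 1 was not far above the other 2 libraries of its group. Gm6685 (chr11:28339104-28339867) was at 2.59, 3.38 and 3.23 CPM in Trp53-/- and 0.0605, 0 and 0 CPM in Trp53+/+, with 2 counts over the latter group and a ratio of 103 (95% counting interval 28.2 to 856, adjusted p = 4.22e-06). Sv2c, a synaptic vesicle protein, was at 3.74, 2.99 and 2.18 CPM against 0.665, 0.259 and 0.178 CPM (2.91 ± 0.50 (SE), adjusted p = 0.00339). Necab2, a calcium-binding protein, was at 0.223, 0.466 and 0.566 CPM and had no count in Trp53+/+, at least 8.43-fold higher by a floor of 3 counts over the group. At most 12 counts were seen in any library, and 2 of the 6 fits that left out a library called it. Pdgfra (chr5:75152292-75198215), the receptor for PDGF and a fibroblast marker, was at 254, 72.5 and 73.97 CPM against 30.7, 15.04 and 23.97 CPM (2.52 ± 0.50 (SE), adjusted p = 0.0108) and at 1.62 ± 0.40 (SE) (adjusted p = 0.0155) without replicate 1, which stood far above the other 2. Prrx1, a homeobox gene of mesenchyme, was at 682, 522 and 552 CPM against 368, 349 and 358 CPM (0.71 ± 0.11 (SE), adjusted p = 0.00187). These were the 2 of 12 fibroblast markers that were called (background 2.23% higher), and 3 were called higher without replicate 1 (background 8.77%).

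**Figure D3:**
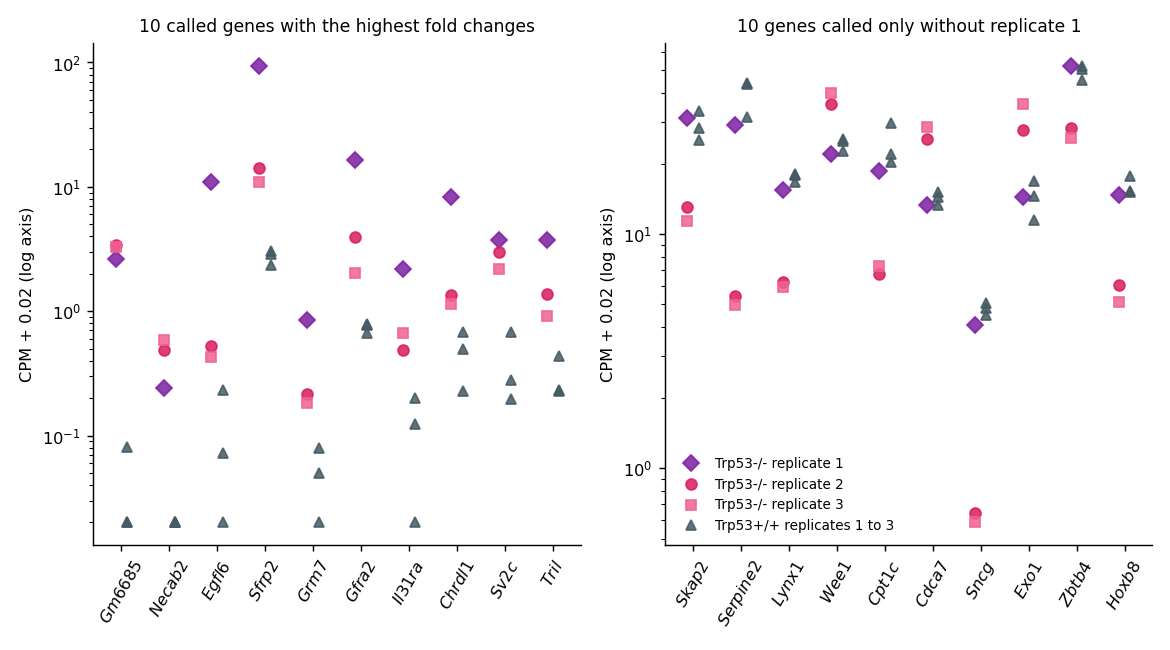
CPM + 0.02 on a log axis, one symbol per library, for the 10 called genes with the highest fold changes (left) and the 10 genes with the lowest p among those called only when Trp53-/- replicate 1 was left out (right). On the left replicate 1 (diamond) is the highest library in 8 genes. On the right it lies among or near the Trp53+/+ triangles, away from the other 2 Trp53-/- libraries, a position that the choice of these genes favours.

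Genes of DNA replication and mitosis stood higher in replicates 2 and 3 of Trp53-/- than in Trp53+/+, while replicate 1 lay near Trp53+/+. Over 148 tested genes of 6 lists, 28 were called higher (background 2.23%) and none lower, and the median log2 fold change was 0.54 against 0.03 over all genes. The calls numbered 10 and 11 without Trp53-/- replicate 2 or 3, and 12, 15 and 6 without Trp53+/+ replicate 1, 2 or 3. A fit of only the 6 libraries with edgeR called none of them (73 at an unadjusted p under 0.05), while DESeq2 over all libraries called 69 and limma voom with sample quality weights, which give a library that stands apart less weight, 131. Of the 28 calls 6 held in each fit that left out 1 library. Without replicate 1, 126 of 148 were called higher (background 8.77%) and 1 lower, with a median of 0.71. Measured against the Trp53+/+ mean, the median member stood at 0.06, 0.67 and 0.80 on the log2 scale in the Trp53-/- libraries and at 0.10, 0.14 and -0.23 in Trp53+/+. Of the 148 genes, replicate 1 lay within the range of the Trp53+/+ libraries in 87, below it in 18 and above it in 43, while both other libraries lay above it in 139. For all 15710 genes the counts of replicate 1 were 4652 within, 5383 below and 5675 above, and both other libraries lay above the range in 3804. For the TRP53 targets the same medians were -0.34, -0.29 and -0.34 in Trp53-/-, with replicate 1 level with the other 2. The part of the Y-linked reads of replicate 1 in these values was not tested.

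**Figure D4:**
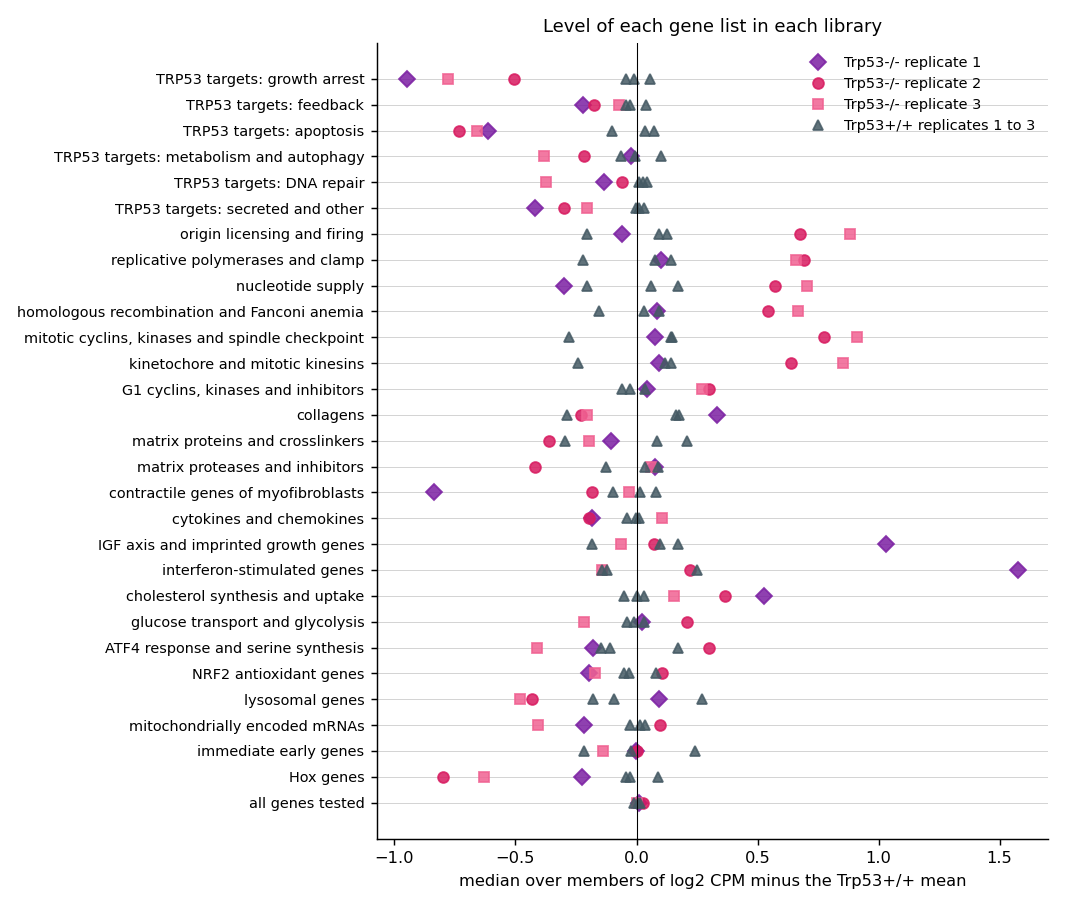
Median over the members of each gene list of log2 CPM minus the Trp53+/+ mean, for each library (diamond, circle and square, Trp53-/- replicates 1 to 3, triangles, Trp53+/+). For the 6 replication and mitosis lists replicate 1 lies among the Trp53+/+ libraries, or just below them for nucleotide supply, and the other 2 Trp53-/- libraries lie to the right.

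Origin licensing and firing genes, which load and start the replicative helicase, had 2 of 27 called higher (background 2.23%) and 23 of 27 without replicate 1 (background 8.77%), with medians of 0.56 and 0.78. The same backgrounds hold for each of the replication and mitosis lists. Recql4, a helicase of origin firing, was at 6.64, 9.12 and 11.1 CPM in Trp53-/- and 4.93, 4.91 and 2.85 CPM in Trp53+/+ (1.06 ± 0.22 (SE), adjusted p = 0.00976), and Cdc7, the kinase that fires origins, at 11.2, 13.8 and 18.03 CPM against 9.10, 8.79 and 7.95 CPM (0.72 ± 0.15 (SE), adjusted p = 0.0132). In the list of replicative polymerases and the clamp 7 of 27 were called higher and 24 without replicate 1. Timeless, of the fork protection complex, was at 17.99, 20.3 and 22.5 CPM against 12.7, 11.3 and 10.1 CPM (0.83 ± 0.13 (SE), adjusted p = 0.00141), the lowest p of the replication genes. Rfc1, the large subunit of the clamp loader, was at 76.6, 90.9 and 90.5 CPM against 63.5, 65.9 and 62.6 CPM (0.43 ± 0.08 (SE), adjusted p = 0.00587), and in it even replicate 1 was above every Trp53+/+ library. Rfc2, of the same complex, differed by 0.52 ± 0.12 (SE) (adjusted p = 0.0250) and Pola1, the catalytic subunit of polymerase alpha, by 0.60 ± 0.15 (SE) (adjusted p = 0.0276). Pola1 was at 37.1, 54.98 and 54.9 CPM against 35.3, 31.8 and 29.8 CPM, and replicate 1 was close to the highest Trp53+/+ library.

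For nucleotide supply 1 of 14 was called higher, Dck, deoxycytidine kinase (0.53 ± 0.14 (SE), adjusted p = 0.0474), and 11 of 14 without replicate 1. The background for each list here was 2.23% called higher, and 8.77% without replicate 1. Homologous recombination and Fanconi anemia genes had 3 of 25 called higher and 17 without replicate 1. Brca1 was at 26.1, 32.7 and 32.9 CPM in Trp53-/- and 21.3, 22.3 and 18.6 CPM in Trp53+/+ (0.55 ± 0.10 (SE), adjusted p = 0.00599), with replicate 1 above every Trp53+/+ library. Fancd2, the monoubiquitinated member of the Fanconi pathway, differed by 0.69 ± 0.15 (SE) (adjusted p = 0.0132) and Brca2, of homologous recombination, by 0.49 ± 0.13 (SE) (adjusted p = 0.0411). Mitotic cyclins, kinases and checkpoint genes had 7 of 24 called higher and 23 without replicate 1. Ccnb2, cyclin B2, was at 37.05, 42.2 and 48.4 CPM against 28.4, 27.1 and 20.9 CPM (0.74 ± 0.13 (SE), adjusted p = 0.00341), and Cdc25b, the phosphatase that activates CDK1, at 27.7, 32.4 and 28.9 CPM against 20.4, 18.1 and 14.1 CPM (0.75 ± 0.13 (SE), adjusted p = 0.00302). For Bub1b, a checkpoint kinase, and Melk, another mitotic kinase, the differences were 0.63 ± 0.12 (SE) (adjusted p = 0.00866) and 0.66 ± 0.16 (SE) (adjusted p = 0.0260). Of kinetochore and kinesin genes 8 of 31 were called higher and 28 without replicate 1. Cenpa, the centromeric histone, was at 41.8, 50.6 and 64.9 CPM against 35.6, 32.5 and 26.9 CPM (0.72 ± 0.15 (SE), adjusted p = 0.00939). Kif20b (0.68 ± 0.16 (SE), adjusted p = 0.0208), Kif11, the spindle motor (0.60 ± 0.15 (SE), adjusted p = 0.0337), and Racgap1, of cytokinesis (0.69 ± 0.18 (SE), adjusted p = 0.0361), each had replicate 1 next to the Trp53+/+ values, and in Kif11 the groups overlapped.

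**Figure D5:**
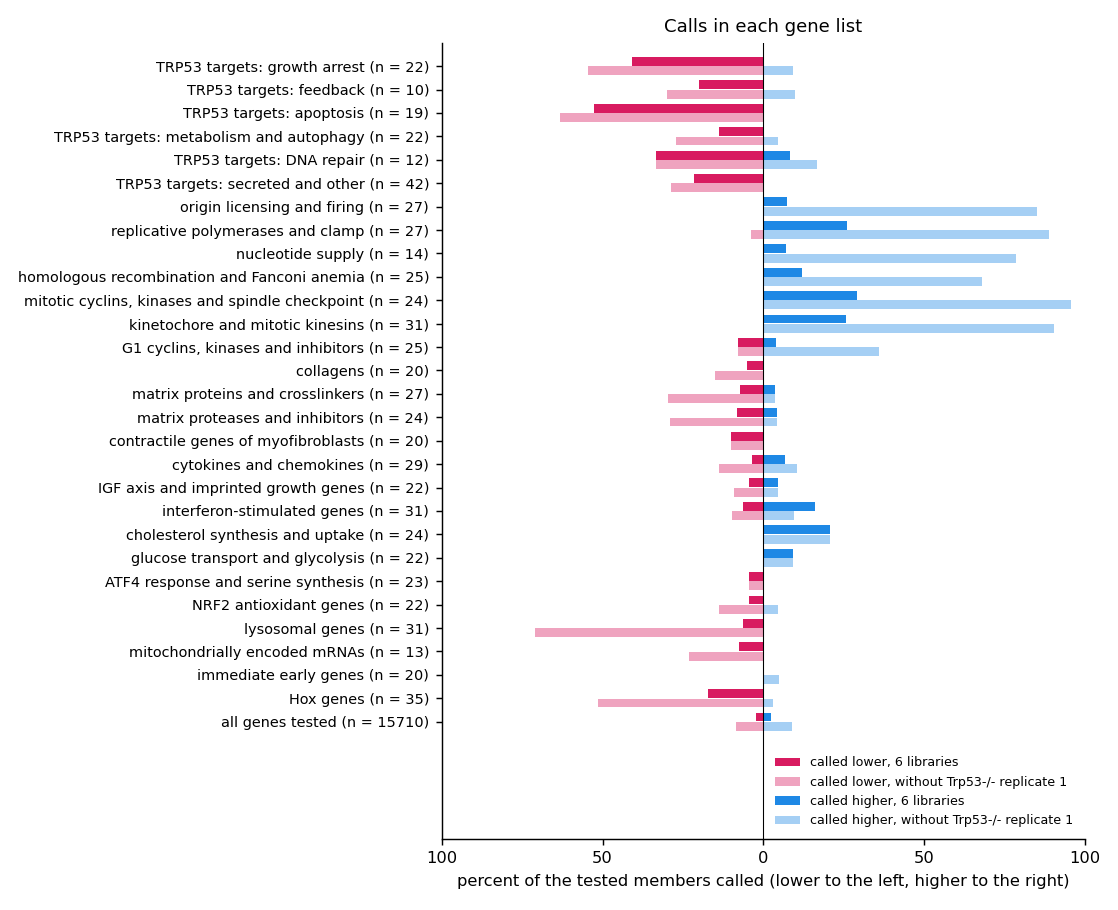
Percent of the tested members of each list called lower (left, red) or higher (right, blue) with all 6 libraries (full colour) and without Trp53-/- replicate 1 (pale), with the same for all 15710 genes at the bottom. The replication and mitosis lists reach 68.0 to 95.8% called higher without replicate 1 against 7.14 to 29.2% with it.

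Motifs of cell-cycle genes were searched on both strands of the same windows. The E2F letters TTTCCCGC or TTTGGCGC stood in 2.17% of windows of genes called lower, 6.69% of those called higher and 2.89% of all. The CHR letters TTTGAA stood in 9.03%, 15.6% and 12.8%, and the CCAAT letters in 34.7%, 42.4% and 40.6%. Among genes called lower and higher without replicate 1 the E2F letters stood in 1.90% and 6.89%, the CHR letters in 10.3% and 16.1%, and the CCAAT letters in 40.2% and 45.9%. Of the 21 replication and mitosis genes called higher that had a window, 2 held an E2F motif (9.52%) and 4 a CHR motif (19.05%). The matches of 4 of them are shown on the strand of the gene, with the motif in capitals.
Brca2, E2F: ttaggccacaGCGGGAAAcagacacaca
Pola1, E2F: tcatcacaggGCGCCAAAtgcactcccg
Ccnb2, CHR: gggactagaaTTTGAAaataagactg
Kif11, CHR: gtctccatttTTCAAAattgaggcgc
The motifs lay at chr5:150522453-150522460, plus strand (Brca2), chrX:93632286-93632293, minus strand (Pola1), chr9:70421716-70421721, minus strand (Ccnb2) and chr19:37376363-37376368, plus strand (Kif11), and all but that of Ccnb2 are in the reverse orientation. Over all 119 replication and mitosis genes tested that had a window, 10.9% held the E2F letters and 17.6% the CHR letters.

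Of 25 regulators of the G1 phase, 2 were called lower and 1 higher (background 2.37% and 2.23%), and 22 were not called. Ccnd2 (chr6:127125162-127152193), cyclin D2, was at 710.0, 661 and 547 CPM in Trp53-/- and 1123, 1079 and 1092 CPM in Trp53+/+ (-0.78 ± 0.13 (SE), adjusted p = 0.00331), with tight Trp53+/+ values. Rb1 (chr14:73183673-73325822), the retinoblastoma protein that holds E2F in check, was at 15.5, 12.03 and 9.62 CPM against 21.6, 21.8 and 24.7 CPM (-0.86 ± 0.13 (SE), adjusted p = 0.000971). Cdkn2d (chr9:21288410-21291407), the CDK4 inhibitor p19, was at 12.2, 11.8 and 10.3 CPM against 7.38, 8.996 and 7.48 CPM (0.53 ± 0.13 (SE), adjusted p = 0.0315). Without replicate 1, 2 of 25 were called lower and 9 higher (background 8.53% and 8.77%).

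In the matrix lists 5.00% of collagens, 7.41% of matrix proteins and 8.33% of proteases were called lower, against a background of 2.37% lower and 2.23% higher. In collagens 1 of 20 was lower, Col18a1 (chr10:77052178-77166548), a basement membrane collagen, at 26.6, 22.9 and 22.8 CPM in Trp53-/- and 76.5, 42.7 and 64.4 CPM in Trp53+/+ (-1.34 ± 0.23 (SE), adjusted p = 0.00311). In matrix proteins and crosslinkers 2 of 27 were lower and 1 higher: Loxl4, a collagen crosslinker (-0.88 ± 0.18 (SE), adjusted p = 0.0106), and Fbln2 (-0.64 ± 0.18 (SE), adjusted p = 0.0488) were lower, and Fbln1, a related fibulin, was higher (0.93 ± 0.21 (SE), adjusted p = 0.0160). In matrix proteases 2 of 24 were lower and 1 higher. Mmp2 (chr8:92827291-92853420), gelatinase A, was at 196, 122 and 144 CPM against 293, 241 and 316 CPM (-0.88 ± 0.17 (SE), adjusted p = 0.00765), Adamts12 differed by -0.89 ± 0.14 (SE) (adjusted p = 0.00205) and Adamts7 by 0.65 ± 0.17 (SE) (adjusted p = 0.0345). Without replicate 1 the calls were 3 of 20 (15.0%), 8 of 27 (29.6%) and 7 of 24 (29.2%) lower, against 8.53% of all genes. Among contractile genes of myofibroblasts 2 of 20 were lower, Des, desmin (-1.45 ± 0.33 (SE), adjusted p = 0.0193), and Itga11, a collagen receptor (-1.21 ± 0.32 (SE), adjusted p = 0.0475), and 2 were without replicate 1. Replicate 1 lay below the Trp53+/+ range in 18 of 20, with a median of -0.83, -0.18 and -0.03 over the 3 Trp53-/- libraries.

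Hox genes keep the positional identity of fibroblasts. Of 35 tested, 6 were called lower (background 2.37%) and none higher, with a median of -0.38, and without replicate 1 the counts were 18 lower (background 8.53%) and 1 higher with a median of -0.79. Hoxb9 (chr11:96271457-96276595) was at 31.05, 25.1 and 20.9 CPM in Trp53-/- and 67.4, 70.3 and 57.02 CPM in Trp53+/+ (-1.33 ± 0.19 (SE), adjusted p = 0.000941). Hoxb2 (chr11:96350525-96354012) was at 7.34, 7.10 and 6.22 CPM against 11.6, 13.1 and 12.6 CPM (-0.84 ± 0.14 (SE), adjusted p = 0.00214). Both were called in all 6 fits that left out a library, whereas Hoxa3 (-0.98 ± 0.24 (SE), adjusted p = 0.0273) was called in 1 of the 6. Genes of a Hox cluster overlap and share transcripts, so their reads are partly shared.

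Of 31 lysosomal genes, 2 were called lower (background 2.37%) and none higher, and 22 were called lower without replicate 1 (background 8.53%), where the median was -0.49 against -0.24 with it. Ctsh (chr9:90054152-90076089), cathepsin H, was at 15.7, 9.04 and 7.36 CPM in Trp53-/- and 29.3, 30.6 and 34.9 CPM in Trp53+/+ (-1.54 ± 0.26 (SE), adjusted p = 0.00293), and Ctsd, cathepsin D, at 312, 173 and 173 CPM against 326, 353 and 482 CPM (-0.82 ± 0.20 (SE), adjusted p = 0.0318). Replicate 1 lay within the Trp53+/+ range in 20 of 31 genes, while both other libraries lay below it in 24. Over all 15710 genes these counts were 4652 and 3285.

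Interferon-stimulated genes showed the reverse, with replicate 1 the highest library. Of 31 tested, 5 were called higher (background 2.23%) and 2 lower (background 2.37%), the median was 0.85, and replicate 1 lay above the Trp53+/+ range in 27. The median over members was 1.58, 0.22 and -0.14 in the 3 Trp53-/- libraries, and without replicate 1 the counts were 3 higher and 3 lower (9.68% each), near the 8.77% and 8.53% of all genes. Trim25 (chr11:88999376-89020293), a ligase of RIG-I signalling, was higher in all 3 libraries, at 35.8, 32.7 and 28.7 CPM against 19.8, 17.01 and 17.03 CPM (0.85 ± 0.12 (SE), adjusted p = 0.000541). Oasl2 (2.20 ± 0.50 (SE), adjusted p = 0.0203) and Ifit2 (0.56 ± 0.13 (SE), adjusted p = 0.0250) were also higher. Irgm1 (chr11:48861968-48871683), a GTPase of antimicrobial defence, was lower at 25.5, 27.1 and 22.1 CPM against 42.8, 45.4 and 57.9 CPM (-0.96 ± 0.16 (SE), adjusted p = 0.00269), as was Tap1, a peptide transporter of antigen presentation (-1.76 ± 0.44 (SE), adjusted p = 0.0311).

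Of 24 genes of cholesterol synthesis and uptake, 5 were called higher (background 2.23%) and none lower. Without replicate 1 the counts were also 5 higher (background 8.77%) and none lower. With all 6 libraries 13 had groups that did not overlap with Trp53-/- higher (background 8.24%). The median was 0.37, and 0.22 without replicate 1. Stard4, a sterol carrier, was at 49.96, 55.1 and 49.8 CPM in Trp53-/- and 31.2, 35.98 and 36.9 CPM in Trp53+/+ (0.57 ± 0.09 (SE), adjusted p = 0.00205). Insig1, which holds SREBP in the endoplasmic reticulum, was at 99.2, 93.5 and 83.99 CPM against 65.5, 70.5 and 64.6 CPM (0.47 ± 0.10 (SE), adjusted p = 0.0118), and Dhcr7, of the last step of synthesis, at 35.7, 24.1 and 19.9 CPM against 14.03, 15.4 and 16.02 CPM (0.82 ± 0.17 (SE), adjusted p = 0.0110). Lss, lanosterol synthase, differed by 0.53 ± 0.13 (SE) (adjusted p = 0.0329) and lost its call without replicate 1 (adjusted p = 0.0545).

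In glucose transport and glycolysis 2 of 22 were called higher, with or without replicate 1 (background 2.23% and 8.77%), and the median was 0.03. Slc2a3, the glucose transporter GLUT3, was at 8.31, 8.92 and 9.05 CPM in Trp53-/- and 4.87, 3.88 and 4.27 CPM in Trp53+/+ (1.01 ± 0.18 (SE), adjusted p = 0.00401), and Slc16a1, a lactate transporter, differed by 0.58 ± 0.15 (SE) (adjusted p = 0.0428). Of 29 cytokines and chemokines 2 were higher (6.90%, background 2.23%) and 1 lower (3.45%, background 2.37%). They were Cxcl10 at 1.62, 1.40 and 0.808 CPM against 0.151, 0.259 and 0.297 CPM (2.49 ± 0.53 (SE), adjusted p = 0.0130), Ccl5 at 0.809, 0.427 and 0.566 CPM against 0.121, 0.0517 and 0.0593 CPM (2.78 ± 0.60 (SE), adjusted p = 0.0146), and Il11, lower at -1.39 ± 0.34 (SE) (adjusted p = 0.0294). All of these were at low levels, and without replicate 1 the list had 3 higher (10.3%, background 8.77%) and 4 lower (13.8%, background 8.53%). Of 22 genes of the IGF axis and imprinted growth genes, Igfbp6 was higher (0.93 ± 0.21 (SE), adjusted p = 0.0214) and Igfbp7 lower (-0.70 ± 0.15 (SE), adjusted p = 0.0118). That is 4.55% each way, against 2.23% higher and 2.37% lower of all genes. Replicate 1 lay above the Trp53+/+ range in 16. Without it 1 was called higher and 2 lower (4.55% and 9.09%, background 8.77% and 8.53%).

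Lists with almost no calls included 20 immediate early genes, of which none was called (median -0.02), with Dusp1 at -0.53 ± 0.22 (SE) (adjusted p = 0.201) and Myc at 0.43 ± 0.25 (SE) (adjusted p = 0.396) as the members with the lowest p. Without replicate 1 Myc was called higher (0.71 ± 0.16 (SE), adjusted p = 0.00877), from values of 44.5, 91.8 and 119 CPM in Trp53-/- and 67.7, 68.2 and 53.3 CPM in Trp53+/+. Of 23 genes of the ATF4 response 1 was lower, Sesn2, also a TRP53 target (-1.06 ± 0.20 (SE), adjusted p = 0.00715), and of 22 NRF2 genes 1 was lower, Hmox1, haem oxygenase (-0.72 ± 0.20 (SE), adjusted p = 0.0482). Of 13 mitochondrially encoded mRNAs mt-Nd4l was lower (-0.34 ± 0.09 (SE), adjusted p = 0.0381), and it overlaps mt-Nd4. These are 4.35%, 4.55% and 7.69% of the lists, against 2.37% of all genes. Without replicate 1, when 8.53% of all genes were lower, the ATF4 list had 1 called lower (4.35%), the NRF2 list 3 lower (13.6%) and 1 higher, and the mitochondrial mRNAs 3 lower (23.1%).

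Of the 2037 genes called only when replicate 1 was left out, 972 were lower and 1065 higher. The 10 with the lowest p without it include Serpine2, a protease inhibitor, at 29.3, 5.39 and 4.93 CPM in Trp53-/- and 43.96, 31.5 and 44.1 CPM in Trp53+/+ (-2.97 ± 0.35 (SE), adjusted p = 0.000242 without replicate 1). Sncg, gamma-synuclein, was at 4.07, 0.621 and 0.566 CPM against 4.47, 5.07 and 4.81 CPM (-3.01 ± 0.41 (SE), adjusted p = 0.000397). In both, replicate 1 was near the Trp53+/+ libraries and the other 2 were far below, a pattern that the choice of genes called only without it favours. Skap2, Lynx1, Cpt1c, Zbtb4 and Hoxb8 were also lower without it (log2 fold changes -1.27 ± 0.15 (SE), -1.56 ± 0.20 (SE), -1.81 ± 0.24 (SE), -0.90 ± 0.13 (SE) and -1.54 ± 0.22 (SE)). Wee1, the kinase that inhibits CDK1, Cdca7 and Exo1, an exonuclease of mismatch repair, were higher (0.61 ± 0.08 (SE), 0.89 ± 0.12 (SE) and 1.13 ± 0.16 (SE)). Exo1 was at 14.3, 27.8 and 36.1 CPM in Trp53-/- and 14.5, 16.9 and 11.5 CPM in Trp53+/+.

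Genes near Trp53 on chromosome 11 were counted apart, since linked sequence of the strain in which an allele was made can stay with it. Of 133 tested genes within 5 Mb, 2 were called lower and 6 higher, or 6.02% against 4.60% of all genes. Within 1 Mb 5 of 73 were called (6.85%) and within 20 Mb 19 of 511 (3.72%). Without replicate 1 the count within 5 Mb was 27, or 20.3% against 17.3% of all genes. It was 4 and 5 without Trp53-/- replicate 2 or 3, and 2, 2 and 1 without Trp53+/+ replicate 1, 2 or 3. Pimreg, a mitotic regulator, was higher (0.92 ± 0.18 (SE), adjusted p = 0.00821), as were Cntrob, a centriole protein (0.54 ± 0.11 (SE), adjusted p = 0.0112), Slc13a5, a citrate transporter (1.56 ± 0.39 (SE), adjusted p = 0.0311), Aurkb, the mitotic kinase Aurora B (0.63 ± 0.17 (SE), adjusted p = 0.0459), Dvl2, of WNT signalling (0.28 ± 0.07 (SE), adjusted p = 0.0457), and Xaf1 (1.32 ± 0.34 (SE), adjusted p = 0.0388). Rnasek (-0.41 ± 0.10 (SE), adjusted p = 0.0216) and Tmem88 (-1.15 ± 0.28 (SE), adjusted p = 0.0304) were lower. None of the 8 was called in all 6 fits that left out a library.

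The effect of Trp53 loss was compared with that in Pole4-/- fibroblasts (the Pole4 tm1(KOMP)Vlcg allele) by an interaction term. The term contrasts 12 libraries of 4 genotypes, and its spread was estimated in the fit to all 18 libraries. A fit of only these 12 libraries called no gene (3720 at an unadjusted p under 0.05). In the fit to all 18 the interaction was called for 52 genes (0.331%), of which 10 were in the replication and mitosis lists, none in the TRP53 target lists, and 19 were also called in Pole4+/+ cells. In 50 of the 52 the effect was larger in size in Pole4-/- cells. Brca1 (-0.88 ± 0.15 (SE), adjusted p = 0.0313, Pole4+/+ minus Pole4-/-) and Bub1b (-1.06 ± 0.18 (SE), adjusted p = 0.0313) were among the members. Of the 12 fits that left out 1 of these libraries, 6 called no gene: those without Pole4+/+ Trp53+/+ replicate 1 or 2, Pole4-/- Trp53+/+ replicate 2 or 3, and Pole4-/- Trp53-/- replicate 1 or 3. The other 6 gave 174 genes without Pole4+/+ Trp53-/- replicate 1, 1995 without its replicate 2 and 3278 without its replicate 3, 366 without Pole4+/+ Trp53+/+ replicate 3, 15 without Pole4-/- Trp53+/+ replicate 1 and 1 without Pole4-/- Trp53-/- replicate 2.

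Among markers of other cell types, those of smooth muscle and pericytes, which activated fibroblasts share in part, had the highest sum. Skeletal muscle markers summed to 55.9 to 59.98 CPM in Trp53-/- and 122 to 158 CPM in Trp53+/+, and Acta1, skeletal actin, and Des, which held most of that sum, were called lower of 12 tested, or 16.7% against 2.37% of all genes (Acta1 at -1.66 ± 0.27 (SE), adjusted p = 0.00244). The median log2 fold change of the 12 was 1.05, opposite in sign to the difference of the sums, and replicate 1 lay above the Trp53+/+ range in 8. Smooth muscle and pericyte markers summed to 2004 to 4026 CPM in Trp53-/- and 4141 to 4692 CPM in Trp53+/+. Rgs5, a pericyte marker, and Des were called lower of 12 tested, also 16.7% against 2.37% of all genes (Rgs5 at -1.79 ± 0.33 (SE), adjusted p = 0.00651). Without replicate 1, 4 of the 12 were called lower (background 8.53%). The summed level was lowest in replicate 1, at 2004, 4026 and 3918 CPM in Trp53-/- and 4564, 4692 and 4141 CPM in Trp53+/+. Cartilage and bone markers summed to 282 to 309 CPM in Trp53-/- and 353 to 701 CPM in Trp53+/+ with none of 11 called. Col2a1 held most of the sum, while the median log2 fold change of the 11 was 0.84, with replicate 1 above the Trp53+/+ range in 7. For endothelium the sum was 28.8 to 89.8 CPM in Trp53-/- and 52.1 to 57.02 CPM in Trp53+/+, with Cldn5 at 0 in all 6 libraries, and for epithelium 11.6 to 40.6 CPM in Trp53-/- and 31.05 to 42.8 CPM in Trp53+/+. For neurons and glia it was 129.9 to 164 CPM in Trp53-/- and 84.5 to 106 CPM in Trp53+/+, with none of 13 called. The part of these cells in the differences above was not tested.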

How the data were processed

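The labels give polyadenylated RNA as the molecule and total RNA as the input of the extraction, and the NuGEN Ovation kits used do not keep strand. The authors aligned reads with STAR 2.5.2 to GRCm38 and deposited RSEM 1.3.0 expected counts per gene in 1 table of 51912 genes and 18 libraries. Here the expected counts were rounded to whole numbers and tested with edgeR 4.0.16 in R 4.3.3: filterByExpr (15710 genes left), TMM scaling, a model with a mean for each of the 6 genotypes fitted to the 18 libraries together, and robust quasi-likelihood F-tests, with Benjamini-Hochberg adjusted p under 0.05 as a call. The SE is the log2 fold change over the root of F. The authors' own comparisons were made with DESeq2 and were not used here. Alternatives were DESeq2 1.42.0, limma 3.58.1 (voom with sample quality weights), other scalings, filters and thresholds, a replicate block and leaving out each library. Depth ran from 10608167 to 32155281 counts in the 6 libraries, and intervals cover counting error only. Named genes were, by rule, Trp53 and Pole4, the 5 called genes with the lowest p, the 10 with the lowest and the 10 with the highest fold change whose groups did not overlap, up to 4 called genes per list and direction (where none was called, the 2 with the lowest p), the 10 with the lowest p called only without Trp53-/- replicate 1, the called genes within 5 Mb of Trp53, and the 5 with the lowest p in the interaction. Some genes that the rule names are not reported here. The members and lists were chosen with earlier results of these data known. The labels give no batch or date.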

Additional observations from a re-analysis of the deposited data

Results flagged for a closer look

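The effect of Trp53 loss differed between Pole4+/+ and Pole4-/- fibroblasts for 52 genes by the interaction term of edgeR's quasi-likelihood test, 28 with the more negative effect in Pole4+/+ and 24 with the more positive, and 4453 genes had an unadjusted p under 0.05. The 5 genes with the lowest p, each at an adjusted p of 0.0313, were these, as the log2 effect in Pole4+/+ minus that in Pole4-/-. Fam111a, a protease that acts at replication forks, was at -1.05 ± 0.16 (SE), from an effect of 0.43 ± 0.11 (SE) in Pole4+/+. Parpbp, a partner of PARP1, was at -1.13 ± 0.17 (SE), from 0.43 ± 0.12 (SE). Cst3, cystatin C, was at 1.12 ± 0.17 (SE), from -0.14 ± 0.12 (SE). Csgalnact1, of chondroitin sulphate synthesis, was at 1.93 ± 0.31 (SE), from -0.60 ± 0.22 (SE). Efs, an adaptor of SRC kinases, was at 2.11 ± 0.35 (SE), from -0.83 ± 0.24 (SE). The number of genes called moved from 0 to 3278 when 1 of the 12 libraries was left out. A fit of only these 12 libraries, in place of all 18, called none.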

How the results depend on the processing

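Of the values for named genes, 1943 kept their direction and side of the threshold over the alternatives, 416 lost and 81 gained a call, and 3 turned sign, all of them not called: Lyz2 (0.98) and Ptprc (0.66) with limma voom and Pole4 (-0.0385) without Trp53-/- replicate 3, which ran from -0.0385 to 0.34 as libraries were left out. The cause of the changes that follow was not tested. With 1 library left out, all genes called numbered 300 to 2718, lower 197 to 1340, higher 103 to 1378, TRP53 targets lower 27 to 49, replication and mitosis genes higher 6 to 126, genes within 5 Mb of Trp53 1 to 27 and interaction genes 0 to 3278. All called were 2718 without Trp53-/- replicate 1 and 477 without replicate 2, and 386, 425 and 300 without Trp53+/+ replicates 1, 2 and 3. In the same order of counts, DESeq2 gave 1312, 626 and 686 called, 69 replication and mitosis genes and 1791 interaction genes. Limma voom with sample quality weights gave 2977, 1235, 1742, 131, 29 near Trp53 and 1192. Library totals alone gave 192, 100, 92, 23 targets, 5, 1 and 0, and moved the median of all genes from 0.03 to 0.12 on the log2 scale. A fit of only the libraries compared gave 94, 70, 24, 15 targets, 0, 0 and 0 (at an unadjusted p under 0.05, 73 replication and mitosis genes, 15 near Trp53 and 3720 in the interaction). An adjusted p under 0.01 left 265, 170, 95, 23 targets, 8, 1 and 0, and a log2 fold change of at least 1 left 268, 151, 117, 1 replication gene and 3 near Trp53. Upper-quartile scaling gave 46 replication and mitosis genes and 308 interaction genes, and a mean of at least 50 counts 51 and 490. Interaction genes were 252 with DESeq2 size factors, 339 with no filter and 333 without ribosomal RNA genes. Within 1 Mb of Trp53 5 were called and within 20 Mb 19. Chosen after seeing the data, DESeq2 without Trp53-/- replicate 1 gave 3123, 1407, 1716, 129, 29 and 768, and the compared libraries without it 1362, 619, 743, 100 and 13.

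Same-numbered deviations correlated over genes at 0.029, 0.421 and -0.028, and other-numbered ones at -0.423 to 0.348. The 2 ranges overlap, so these values do not decide whether the replicate numbers pair the libraries. With the number as a replicate block 795 genes were called, 422 lower and 373 higher, with 38 targets lower, 22 replication and mitosis genes higher, 8 near Trp53 and 548 interaction genes. Gm4353 and Necab2 had at most 15 and 12 counts in a library, and the part of depth in their calls was not tested.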

Other observations

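Y-linked genes summed to 258 counts in Trp53-/- replicate 1, or 4.1% of the median CPM of the 7 male libraries of the series, against 0 to 10 counts in the other 5 libraries, and this library had Xist at 857 CPM. Cartilage and bone markers, with a median over members of 1.62, 0.24 and 0.46 on the log2 scale against the Trp53+/+ mean in the 3 Trp53-/- libraries, and skeletal muscle markers, at 1.47, 0.30 and 0.07, also stood highest in that library by this measure, while their summed CPM did not.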
